A study of Mus musculus with 8 samples.

Results

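The genes described here act in B cell receptor signalling: 36 named genes for the receptor itself, its co-receptors, inhibitory receptors, kinases, adaptors, effector enzymes, the arm leading to NF-kB and the intracellular proteins that damp the signal. They were chosen by name, and every probe set annotated to a listed symbol alone was taken, whatever its value. Of the 36 genes, 34 had such a probe set, 78 probe sets in all, and all 34 passed the filter on dim signal and were tested, among 11027 genes tested of 18193 annotated. Ighd, the IgD heavy chain gene, and Lyn, a Src-family kinase gene, had no probe set annotated to them alone and were not analysed here. Spleens of 8-week-old mice were profiled on Affymetrix mouse expression arrays, 1 spleen on each array and no pooling. The 4 arrays labelled Nix_KO came from Nix-null mice, in which Bnip3l, the gene for the mitochondrial BCL2-family protein Nix, was knocked out, and the 4 labelled WT from wild-type mice. By its title the series asks how losing Nix bears on apoptosis and on the making of red cells. The sources used here do not give strain, sex, how the null allele was made or which part of the gene it lacks, and the RNA is that of the whole organ with all its cell types. Arrays are named by genotype and title number: Nix_KO 10, 2, 3 and 6, and WT 3, 4, 5 and 6.

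The B cell receptor is a membrane immunoglobulin joined to the signalling chains CD79A and CD79B, whose cytoplasmic tyrosines are phosphorylated by Src-family kinases and then bind the kinase SYK. SYK and BTK, assembled with their substrates by adaptors such as BLNK, switch on phospholipase C gamma, phosphoinositide 3-kinase and guanine nucleotide exchange factors, and protein kinase C beta carries the signal through BCL10 and MALT1 to NF-kB. Inhibitory receptors such as CD22 recruit the phosphatases SHP-1 and SHIP, which damp the response. The spleen holds large numbers of mature B cells in its follicles and marginal zone.

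Levels are log2 intensities of each gene's brightest probe set, judged by its mean over the 8 arrays, a difference is Nix_KO minus WT on that scale, and a gene is called lower or higher where its adjusted p from limma, over all genes tested, was under 0.05. Signal of Bnip3l itself was present in all 8 arrays (log2 9.38 or above in each of its 3 probe sets, all shared with its pseudogene), with differences of 0.43, -0.50 and 0.58, of which none passed. The signal thus did not bear out the genotype labels, and all directions below compare arrays as they are labelled. Pancreatic genes stood out in Nix_KO 3, WT 3 and WT 5, with mean log2 intensities of 13.13, 12.10 and 10.06 over 9 pancreas markers against 5.13 to 7.43 in the other arrays. The members' results are therefore given also without those 3 arrays. Over all genes the median difference was -0.15.

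Most of the 34 tested genes read lower in Nix_KO spleen, in every role. Of the 34 tested genes 31 fell, 0 rose and 3 did not pass, namely Ighm, Pik3ap1 and Dapp1. That is 91.2% lower, where 24.1% of all tested genes were lower and 14.2% higher. The 34 differences were all below 0, with a median of -1.23, and 24 genes fell by at least 2-fold, a size that 7.63% of all genes reached. In 32 of the 34 genes every Nix_KO array lay below every WT array, as in 23.9% of all genes, and the 2 genes whose groups overlapped were Ighm and Pik3ap1. The genes that fell did so by similar amounts: 25 of the 31 differences lay between -1.5 and -0.9, and the extremes were -0.62 for the kinase gene Btk and -1.83 for the tetraspanin gene Cd37. Their limma adjusted p ran from 0.000976 to 0.0105. In RNA of a whole organ, fewer B cells, a smaller share of B cells among other cells and less RNA per B cell cannot be told apart. Without Nix_KO 3, WT 3 and WT 5, 23 members were lower, where 7.6% of all genes were. The 8 no longer called were Cd81, Tnfrsf13c, Tnfrsf13b, Btk, Bank1, Vav2, Prkcb and Inpp5d, each still with a negative difference (limma adjusted p from 0.0527 to 0.0919).

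**Figure D1:**
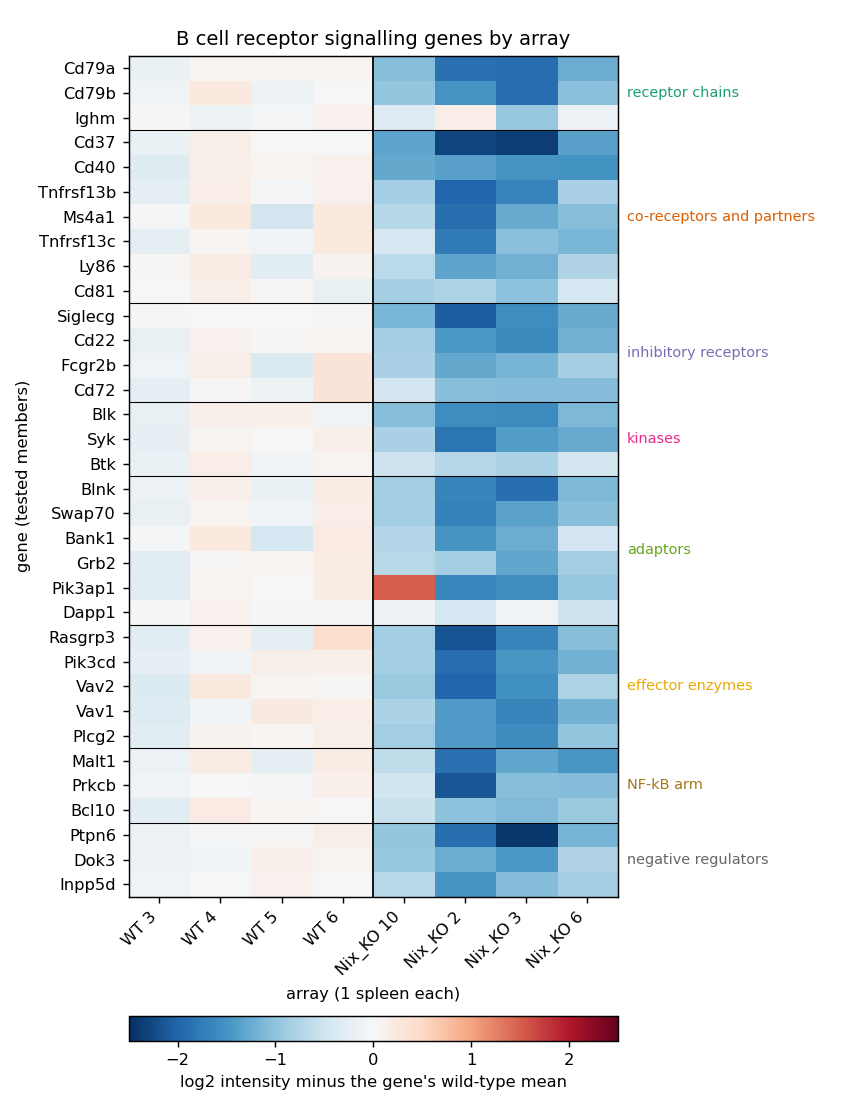
Log2 intensity of each tested member in each of the 8 arrays, as the difference from that gene's WT mean. Rows are genes grouped by role, columns are arrays, and blue is lower. The 4 Nix_KO columns are blue in nearly every row, most deeply in Nix_KO 2 and Nix_KO 3. Dapp1 is pale, Ighm is pale except in Nix_KO 3, and Pik3ap1 is red in Nix_KO 10 alone.

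Markers of other spleen cell types moved at the same time, where 24.1% of all tested genes were lower and 14.2% higher. Of B cell markers that are not among the 36 genes (Cr2 is also on the list of other pathway genes below) 7 of 7 tested were lower, with a summed linear intensity of 4389.59 to 9403.63 in Nix_KO arrays and 15354.2 to 19186.4 in WT arrays. T cell markers were lower in 6 of 7, with sums of 3414.53 to 6971.5 against 6980.37 to 10751.5. Red cell precursor markers were higher in 6 of 6, with sums of 83874.5 to 106184 against 22145.5 to 47249.4, and neutrophil and myeloid precursor markers in 8 of 8, with sums of 15569.8 to 28802.4 against 1777.76 to 12586.9. Macrophage and monocyte markers were lower in 3 of 7 (25889.8 to 36647.9 against 40235.6 to 46131.1) and dendritic cell markers in 4 of 5 (775.22 to 1117.44 against 1513.43 to 2047.23). Plasma cell markers were mixed, with 3 lower and 1 higher of 7 (32912.6 to 44956.7 against 23379 to 30355.8). Such linear sums follow the brightest genes. Here these were Igha, which was higher (mean log2 14.38 against 13.24), and Jchain, which did not pass (13.43 against 13.14), while Xbp1, Prdm1 and Irf4 were lower. The part of these shifts in the members' differences was not tested.

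**Figure D2:**
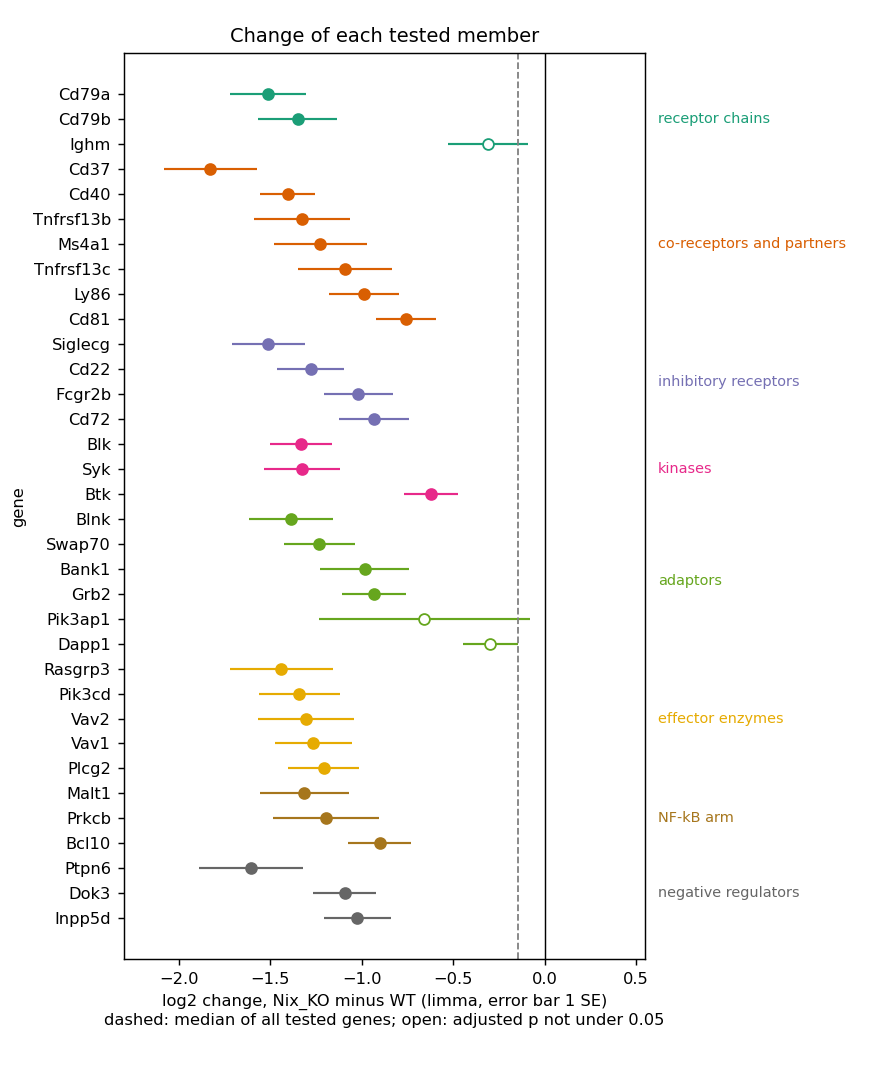
Log2 difference, Nix_KO minus WT, of each tested member with its limma standard error, grouped by role; filled points had an adjusted p under 0.05 and open points did not, and the dashed line is the median of all genes tested (-0.15). All 34 points lie left of 0, and the 3 open ones are Ighm, Pik3ap1 and Dapp1.

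Of the receptor's own chains the signalling pair passed the test and the heavy chain did not. Cd79a, the first signalling chain, read 13.55, 13.77, 13.78 and 13.79 in WT 3, 4, 5 and 6, and 12.66, 11.85, 11.84 and 12.48 in Nix_KO 10, 2, 3 and 6. Its mean fell from 13.72 ± 0.12 to 12.21 ± 0.43 (SD, n = 4 each), a difference of -1.51 ± 0.21 SE or 2.85-fold (limma adjusted p = 0.00132). The WT arrays lay close together, with WT 3 lowest, and every Nix_KO array was below them. Cd79b, the second chain, read 13.29, 13.62, 13.25 and 13.38 in the WT arrays and 12.42, 11.90, 11.48 and 12.34 in the Nix_KO arrays, in the same order. It fell from 13.39 ± 0.17 to 12.04 ± 0.43 (SD, n = 4 each), a difference of -1.35 ± 0.21 SE or 2.55-fold (limma adjusted p = 0.00183). Here too the groups did not overlap, and in both chains Nix_KO 10 and Nix_KO 6 were nearest to wild type.

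Ighm, the heavy chain of IgM, read 14.52, 14.38, 14.48 and 14.61 in WT 3, 4, 5 and 6, and 14.17, 14.66, 13.56 and 14.35 in Nix_KO 10, 2, 3 and 6. Nix_KO 2 was above all WT arrays, Nix_KO 3 was the lowest of all arrays and the groups overlapped. The difference was -0.31 ± 0.22 SE (limma adjusted p = 0.281), and -0.10 without Nix_KO 3. Unlike the signalling chains, Ighm is also made in large amounts by plasma cells, and of 7 plasma cell markers 3 were lower and 1 higher; the part of plasma cells in the Ighm level was not tested. The other 8 tested probe sets of Ighm gave differences from -0.41 to -2.44, and 0 of the 9 passed. The next brightest, at -0.65 ± 0.28 SE (limma adjusted p = 0.103 over all probe sets), had no overlap. Its highest Nix_KO array (14.28) lay just below its lowest WT array (14.29). The mean of the gene's probe sets gave -0.96 (limma adjusted p = 0.103). Whether Ighm differed from the signalling chains was therefore left as a description, with no test. The probe set with the widest difference, at -2.44 ± 1.18 SE (limma adjusted p = 0.145 over all probe sets), read 10.53, 11.47, 12.06 and 13.09 in WT 3, 4, 5 and 6. In Nix_KO 10, 2, 3 and 6 it read 10.97, 11.50, 9.58 and 5.36, so single spleens set its size. A further 4 probe sets annotated to Ighm jointly with other genes were not used.

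**Figure D3:**
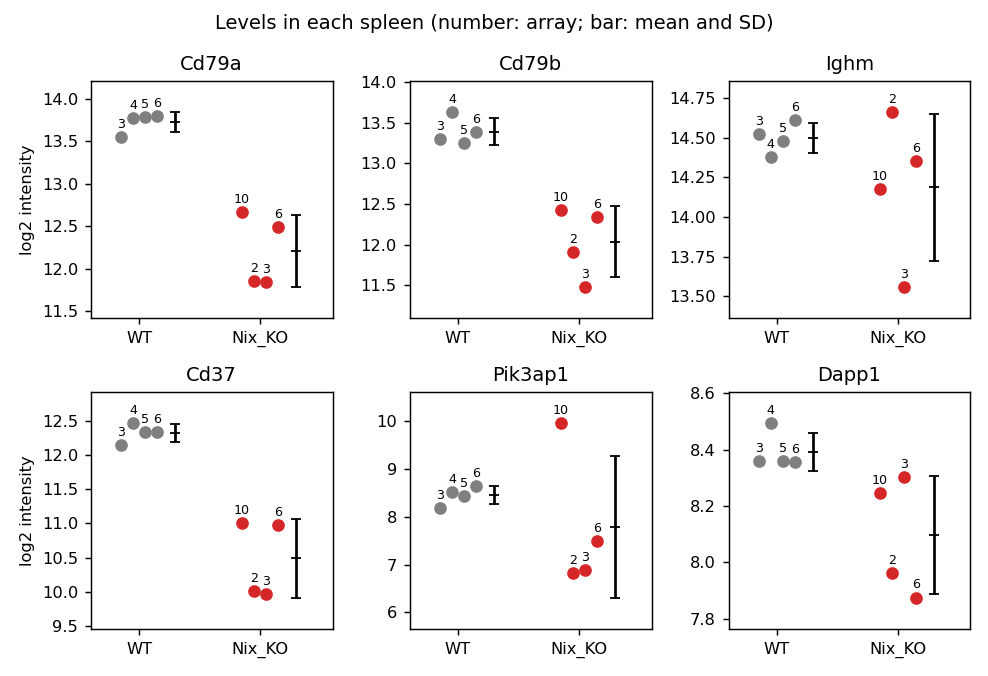
Log2 intensity of 6 members in each spleen, WT in grey and Nix_KO in red, with the array number beside each point and the group mean and SD as a bar; each panel has its own vertical scale. Cd79a, Cd79b and Cd37 show separate groups, Ighm overlaps, Pik3ap1 has Nix_KO 10 at 9.95 above all other arrays, and Dapp1 differs by 0.30 log2 units without overlap.

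Since nearly all members read lower together, the DNA just before their start sites was searched for letters that factors of B and myeloid cells are known to bind. The RefSeq promoter table (GRCm38.p6) held windows for 28 of the 36 genes, 34 windows in all, and the 250 bases before each start were read on both strands. The octamer ATGCAAAT, bound by OCT2, was in 2 of the 34 windows (Blnk and Prkcb) and in 1.6% of 32851 windows of all genes. A palindromic form bound by EBF1 was in 1 (Cd22) and in 0.779% of all. GAGGAAGT, a form bound by PU.1, was in 6 (Cd37, Cd72, Grb2, Inpp5d, Rasgrp3 and Vav1), which is 17.6% against 2.44% of all. Its core GAGGAA was in 12 windows (35.3%, against 23.3%), and AAGAGGAA, which overlaps that core, in 4 (11.8%, against 2.95%). The E-box CAGGTG, bound by E2A, was in 14 windows of 12 genes (41.2%, against 17.2%), the wider CANCTG, which takes in its reverse complement, in 20 (58.8%, against 44.8%), and an NF-kB form in 0 (against 0.356%). A match describes these letters only. The motifs and the windows printed were chosen after the matches were seen. The windows below are those of the signalling chain Cd79a (chr7:24897247-24897496, plus strand) and of Cd37, the member with the largest fall (chr7:45238840-45239089, minus strand). Those of the inhibitory receptor Cd22 (chr7:30879029-30879278, minus strand) and of Dapp1, which did not pass (chr3:137981550-137981799, minus strand), follow. Capitals mark matches to the octamer, the EBF1 form, GAGGAAGT, GAGGAA or CAGGTG on either strand, and the Dapp1 window has none. Windows of Cd81, Tnfrsf13b, Ly86, Fcgr2b, Btk, Dok3 and Bcl10, which fell, had no match to these forms either. That of Pik3ap1, which did not pass, matched GAGGAA and CAGGTG.
Cd79a: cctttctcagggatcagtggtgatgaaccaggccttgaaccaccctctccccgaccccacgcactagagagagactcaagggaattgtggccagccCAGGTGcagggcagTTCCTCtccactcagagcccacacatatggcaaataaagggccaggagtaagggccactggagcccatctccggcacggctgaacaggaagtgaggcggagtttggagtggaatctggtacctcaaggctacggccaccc
Cd37: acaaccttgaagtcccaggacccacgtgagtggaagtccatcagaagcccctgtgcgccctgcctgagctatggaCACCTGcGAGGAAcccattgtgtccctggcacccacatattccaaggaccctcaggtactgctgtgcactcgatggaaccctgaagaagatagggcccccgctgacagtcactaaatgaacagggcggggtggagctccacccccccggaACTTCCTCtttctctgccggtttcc
Cd22: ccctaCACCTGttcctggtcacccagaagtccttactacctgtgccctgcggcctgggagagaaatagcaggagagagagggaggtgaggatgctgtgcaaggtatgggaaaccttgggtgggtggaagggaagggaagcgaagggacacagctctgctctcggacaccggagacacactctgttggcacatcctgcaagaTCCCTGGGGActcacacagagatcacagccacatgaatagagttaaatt
Dapp1: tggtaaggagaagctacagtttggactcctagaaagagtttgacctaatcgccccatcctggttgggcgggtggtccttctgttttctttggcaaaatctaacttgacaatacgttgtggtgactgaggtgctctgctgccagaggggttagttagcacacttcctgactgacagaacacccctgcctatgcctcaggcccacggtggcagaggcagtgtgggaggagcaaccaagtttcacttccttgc

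All 7 tested co-receptors and receptor partners fell, with a median difference of -1.23. Cd40, the receptor for T cell help, had the smallest adjusted p of all members. It read 9.05, 9.48, 9.40 and 9.46 in WT 3, 4, 5 and 6, and 8.07, 7.98, 7.87 and 7.85 in Nix_KO 10, 2, 3 and 6. The 4 Nix_KO spleens lay closer together than for any other tested member, and all were below wild type, at 7.94 ± 0.10 against 9.35 ± 0.20 (SD, n = 4 each). The difference was -1.40 ± 0.15 SE, or 2.65-fold (limma adjusted p = 0.000976). Tnfrsf13c, the receptor for the B cell survival factor BAFF, had the largest adjusted p of the group, 0.00839. It read 11.05, 11.37, 11.23 and 11.55 in the WT arrays and 10.89, 9.53, 10.26 and 10.15 in the Nix_KO arrays, so Nix_KO 10 was only just under the lowest wild-type spleen. Its difference was -1.09 ± 0.26 SE (2.13-fold).

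Tnfrsf13b, the related receptor TACI, fell 2.51-fold (-1.33 ± 0.26 SE), and Ms4a1, which encodes CD20, fell 2.34-fold (-1.23 ± 0.26 SE). Cd37, a tetraspanin of the B cell membrane, read 12.14, 12.46, 12.33 and 12.33 in WT 3, 4, 5 and 6 and 11.00, 10.02, 9.97 and 10.97 in Nix_KO 10, 2, 3 and 6; it is set out because of its size, a difference of -1.83 ± 0.25 SE or 3.55-fold (limma adjusted p = 0.00133). The Nix_KO spleens formed a higher pair, 10 and 6, and a lower pair, 2 and 3. Cd81, a tetraspanin that many cell types express, fell 1.69-fold (-0.76 ± 0.16 SE), the smallest change of the group. Ly86, which encodes MD-1, the partner of the Toll-like receptor relative RP105, fell 1.98-fold (-0.99 ± 0.19 SE).

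The inhibitory receptors fell as the activating ones did, 4 of 4 with a median of -1.15. Siglecg, a sialic acid-binding receptor that restrains the B cell receptor, read 10.30, 10.34, 10.33 and 10.36 in WT 3, 4, 5 and 6, the tightest wild-type group of any member (SD 0.03). In Nix_KO 10, 2, 3 and 6 it read 9.18, 8.26, 8.78 and 9.07, a difference of -1.51 ± 0.20 SE or 2.85-fold (limma adjusted p = 0.00121). Every Nix_KO spleen was over 1 log2 unit below wild type. Cd72, a lectin-like receptor, read 11.09, 11.36, 11.21 and 11.66 in the WT arrays and 10.84, 10.26, 10.25 and 10.24 in the Nix_KO arrays. The values of Nix_KO 2, 3 and 6 were nearly the same and Nix_KO 10 stood above them; the difference was -0.93 ± 0.19 SE (limma adjusted p = 0.00456), and -1.08 without Nix_KO 10. Cd22, a sialic acid-binding receptor that recruits SHP-1, fell 2.43-fold (-1.28 ± 0.18 SE) and Fcgr2b, the inhibitory IgG Fc receptor, 2.03-fold (-1.02 ± 0.19 SE).

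The tested tyrosine kinases, 3 of 3, fell. Blk, a Src-family kinase of B cells, read 10.87, 11.18, 11.19 and 10.97 in WT 3, 4, 5 and 6 and 9.99, 9.51, 9.46 and 9.92 in Nix_KO 10, 2, 3 and 6. The gap between the lowest WT and the highest Nix_KO spleen was wider than the range within either genotype, and the difference was -1.33 ± 0.17 SE or 2.52-fold (limma adjusted p = 0.00118). Syk, which binds the phosphorylated chains, fell 2.51-fold (-1.33 ± 0.21 SE). Btk, the kinase downstream of SYK that B cells share with myeloid cells, read 9.59, 9.92, 9.65 and 9.82 in the WT arrays and 9.22, 9.04, 8.95 and 9.29 in the Nix_KO arrays. It moved least of all the genes that fell, by -0.62 ± 0.15 SE or 1.54-fold (limma adjusted p = 0.00893), and still without overlap.

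Among the adaptors, 4 of 6 fell, with a median of -0.96, and this role held both signalling intermediates that did not pass. Swap70, an actin and phosphoinositide-binding protein, had the smallest adjusted p. It read 10.83, 11.09, 10.94 and 11.19 in WT 3, 4, 5 and 6 and 10.17, 9.33, 9.67 and 9.95 in Nix_KO 10, 2, 3 and 6, a difference of -1.23 ± 0.19 SE (2.35-fold, limma adjusted p = 0.0018). Blnk, the scaffold for BTK and phospholipase C gamma, fell 2.61-fold (-1.39 ± 0.23 SE), Bank1, a B cell scaffold protein, 1.98-fold (-0.98 ± 0.24 SE), and Grb2, a link to RAS signalling in most cells, 1.91-fold (-0.93 ± 0.17 SE).

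Pik3ap1 encodes BCAP, which docks phosphoinositide 3-kinase at the receptor. It read 8.19, 8.51, 8.44 and 8.64 in WT 3, 4, 5 and 6, and 9.95, 6.82, 6.89 and 7.49 in Nix_KO 10, 2, 3 and 6. Nix_KO 10 was thus above every wild-type spleen and the other 3 Nix_KO spleens were below every one. The difference over all arrays was -0.66 ± 0.58 SE (limma adjusted p = 0.39), and without Nix_KO 10 it was -1.38 (limma adjusted p = 0.00151). A second, dimmer probe set of the gene did not set Nix_KO 10 apart: it read 5.94, 6.17, 6.22 and 6.53 in the WT arrays and 5.12, 4.84, 5.18 and 5.52 in the Nix_KO arrays, and was lower by 1.05 ± 0.19 SE (limma adjusted p = 0.00488 over all probe sets). Dapp1, which encodes BAM32, an adaptor that binds phosphoinositides, showed the smallest difference of all. Its values were 8.36, 8.49, 8.36 and 8.35 in the WT arrays and 8.24, 7.96, 8.30 and 7.87 in the Nix_KO arrays, which did not overlap but lay close, and the difference was -0.30 ± 0.15 SE (limma adjusted p = 0.138). Dapp1 is described in full because it did not pass.

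The effector enzymes fell in 5 of 5, with a median of -1.31. Plcg2, the phospholipase that releases calcium, read 10.31, 10.70, 10.64 and 10.75 in WT 3, 4, 5 and 6 and 9.73, 9.18, 9.02 and 9.64 in Nix_KO 10, 2, 3 and 6, a difference of -1.21 ± 0.20 SE or 2.31-fold (limma adjusted p = 0.00194). Vav2, a guanine nucleotide exchange factor found in many tissues, read 9.96, 10.53, 10.36 and 10.32 in the WT arrays and 9.37, 8.30, 8.76 and 9.53 in the Nix_KO arrays. The Nix_KO spleens spread over more than 1 log2 unit, and the difference was -1.31 ± 0.26 SE or 2.47-fold (limma adjusted p = 0.00421). Its blood cell relative Vav1 fell 2.40-fold (-1.27 ± 0.21 SE) and Rasgrp3, an exchange factor for RAS, 2.71-fold (-1.44 ± 0.28 SE). Pik3cd, the leukocyte phosphoinositide 3-kinase catalytic subunit, fell 2.53-fold (-1.34 ± 0.22 SE).

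All 3 genes of the arm to NF-kB fell, with a median of -1.20. Malt1, the paracaspase of the complex, read 9.65, 9.97, 9.57 and 9.98 in WT 3, 4, 5 and 6 and 9.15, 7.94, 8.49 and 8.34 in Nix_KO 10, 2, 3 and 6 (-1.31 ± 0.24 SE, 2.49-fold, limma adjusted p = 0.00298). Prkcb, protein kinase C beta, read 11.53, 11.63, 11.57 and 11.74 in the WT arrays and 11.12, 9.48, 10.56 and 10.53 in the Nix_KO arrays. Wild-type spleens were alike (SD 0.09), whereas the Nix_KO spleens ranged over more than 1.5 log2 units, and the difference was -1.20 ± 0.29 SE (2.29-fold, limma adjusted p = 0.00949). In both genes Nix_KO 10 was the highest and Nix_KO 2 the lowest of its genotype. Bcl10, the partner of MALT1, fell 1.87-fold (-0.90 ± 0.17 SE).

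The intracellular negative regulators, 3 of 3, fell too. Dok3, an adaptor that recruits inhibitory enzymes, read 9.01, 9.07, 9.26 and 9.21 in WT 3, 4, 5 and 6 and 8.18, 7.90, 7.71 and 8.38 in Nix_KO 10, 2, 3 and 6, a difference of -1.09 ± 0.17 SE or 2.13-fold (limma adjusted p = 0.00182). Inpp5d, the lipid phosphatase SHIP, read 10.38, 10.50, 10.60 and 10.48 in the WT arrays and 9.80, 9.01, 9.41 and 9.65 in the Nix_KO arrays (-1.02 ± 0.18 SE, 2.03-fold, limma adjusted p = 0.0026). Neither gene had overlapping groups. Ptpn6, the tyrosine phosphatase SHP-1, had the second largest fall of all members, 3.04-fold (-1.61 ± 0.28 SE), with Nix_KO values from 9.69 in array 3 to 11.14 in array 10 against 11.96 to 12.25 in wild type.

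Sorted by where the genes are known to be expressed, the fall was not limited to genes restricted to B cells. Of 9 tested genes largely restricted to the B lineage 8 fell (median -1.28), of 20 shared with other leukocytes 18 fell (median -1.22), and all 5 broadly expressed genes, Cd81, Vav2, Bcl10, Malt1 and Grb2, fell (median -0.93). By probe set, Vav2 was lower in 1 of 2, Malt1 in 1 of 3, Bcl10 in 2 of 4, Grb2 in 2 of 2 and Cd81 in its only 1. Cd81 and Vav2 were not called without Nix_KO 3, WT 3 and WT 5. With the replicate block described at the end, Cd81, Vav2 and Bcl10 were not called. Of all tested genes 24.1% were lower, with a median of -0.15. The difference between the 3 classes was not tested.

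The SD among the Nix_KO spleens was larger than among the wild-type spleens in 32 of 34 members (94.1%), with a median of 0.41 against 0.17. Over all tested genes this held for 72.2%, with a median SD of 0.31 against 0.19, so the wider Nix_KO spread was not limited to the members. Relative to each gene's WT mean, the median member stood at -0.82 in Nix_KO 10, -1.06 in Nix_KO 6, -1.42 in Nix_KO 3 and -1.51 in Nix_KO 2. For WT 3, 5, 4 and 6 the same medians were -0.17, -0.004, 0.10 and 0.12. Nix_KO 10 held the highest Nix_KO value for 26 members, and the lowest value was in Nix_KO 2 for 16 members and in Nix_KO 3 for 15. Within wild type, WT 3 was lowest for 24 members. The 14 B cell identity genes, none of them members, took the same order, with medians of -0.85, -1.22, -1.70 and -1.87 in Nix_KO 10, 6, 3 and 2. Over the same arrays, the mean log2 intensity of the red cell precursor markers was 13.18, 13.44, 13.62 and 13.40, and in the WT arrays 3, 4, 5 and 6 it was 12.28, 11.79, 11.62 and 10.44, so WT 3 had the most red cell precursor signal of the wild-type spleens. WT 3 and Nix_KO 3 also had the most pancreatic signal of their genotypes (mean log2 12.10 and 13.13), whereas Nix_KO 2 read 6.18. The part of the red cell precursor and pancreatic signals in the members' spread was not tested.

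Read probe set by probe set, 52 of the 73 tested were lower, 0 higher and 21 not passed, where 17.6% of all probe sets were lower and 12.5% higher. A difference below 0 was read by 72 of the 73, and 9 of those not passed belonged to Ighm. The 5 untested probe sets were under the filter. Without Nix_KO 3, WT 3 and WT 5 only 3 probe sets were lower, those of Cd37, Rasgrp3 and Cd40, where 0.85% of all probe sets were. Of the 20 genes with several tested probe sets, 11 were lower in all of them, 7 had probe sets that differed in call (Syk, Pik3ap1, Pik3cd, Vav2, Prkcb, Bcl10 and Malt1), and Ighm and Dapp1 had none called. Pik3cd was the widest case. Its brightest probe set gave -1.34, others past the threshold -1.61 and -0.95, and a pair lay near 0, at -0.04 and 0.01 (limma adjusted p = 0.884 and 0.974 over all probe sets). That pair read 8.28 to 8.74 and 5.88 to 6.67 over all 8 arrays. Bcl10 likewise had a probe set at -0.10 (limma adjusted p = 0.648) beside others at -0.90, -0.74 and -0.79, the last not passing (limma adjusted p = 0.0617). Tested as differences within arrays, 0 of the 85 pairs of probe sets of 1 member passed in limma, where 1.43% of all such pairs did, and 15 had an unadjusted p under 0.05. The lowest limma adjusted p of a member pair was 0.0641, for Pik3cd at -1.34 against -0.04, and the next gene was Bcl10 at -0.90 against -0.10 (0.0701). In simulated data this pair fit recovered 34.3% of 2-fold and 83.3% of 4-fold differences, so 0 calls do not show that the probe sets agree. The sources used here do not say which transcripts each probe set reads.

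**Figure D4:**
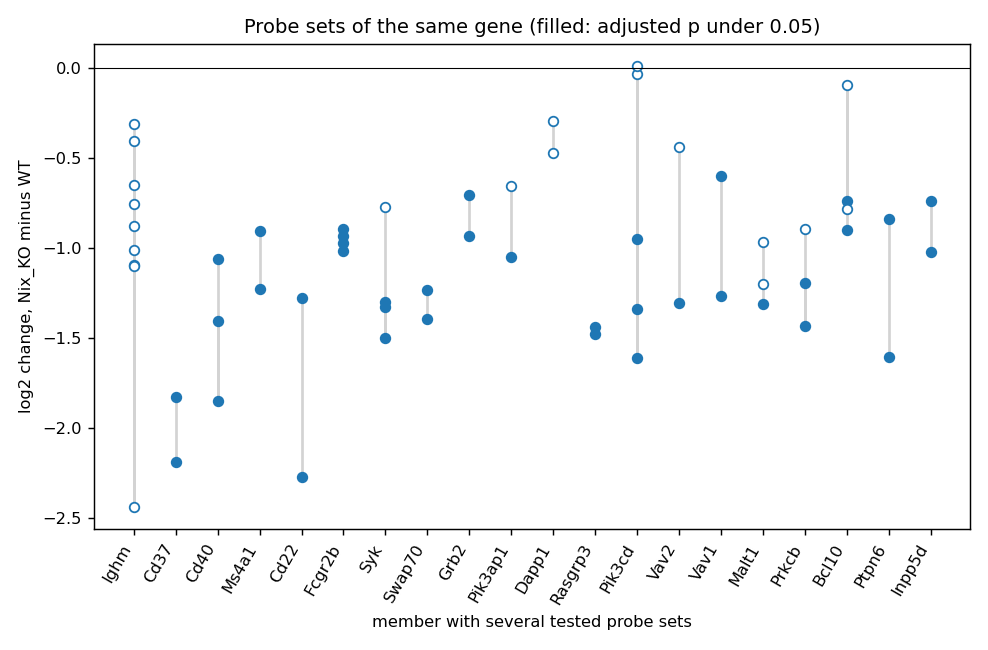
Log2 difference, Nix_KO minus WT, of every tested probe set of the 20 members with several, 1 column per gene; filled points had an adjusted p under 0.05 over all probe sets and open points did not. Most columns are filled below 0, the 9 points of Ighm are all open, and Pik3cd and Bcl10 hold open points near 0 beside filled ones.

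Other genes of the pathway, listed by known function, moved less uniformly. Of 71 listed genes 57 were tested, of which 38 were lower, 2 higher and 17 not passed, with a median of -0.79. Of all tested genes 24.1% were lower and 14.2% higher. Without Nix_KO 3, WT 3 and WT 5, 17 were lower (the share of all genes lower without these arrays is given above). Among its calcium and NFAT genes Itpr3, a calcium release channel, fell 3.11-fold (limma adjusted p = 0.00156), Nfatc2, a calcium-responsive transcription factor, 2.99-fold (limma adjusted p = 0.00228), and Nfatc1 and the calcium entry channel gene Orai1 had differences of -1.66 and -1.09, both past the threshold. Fcrl1, an Fc receptor-like protein of B cells, fell 2.73-fold (limma adjusted p = 0.00162). Within the same branch Ppp3cb, a catalytic subunit of calcineurin, rose. It read 9.19, 9.07, 8.94 and 8.85 in the WT arrays and 9.80, 10.12, 10.25 and 9.90 in Nix_KO 10, 2, 3 and 6, a 2.01-fold difference without overlap (limma adjusted p = 0.00173). Averaged over its probe sets it did not pass. Its companion Ppp3ca fell 1.74-fold (limma adjusted p = 0.022), with overlapping groups.

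Gab1, a docking protein for phosphoinositide 3-kinase, was the other gene that rose (1.93-fold, limma adjusted p = 0.00775). Of the NF-kB genes Rela, Ikbkb, Nfkbia and Rel fell, with differences of -0.75, -0.94, -0.98 and -0.59, and Ikbkg read 0.01 (limma adjusted p = 0.974). The phosphoinositide 3-kinase subunits of wide expression did not pass, with 0.18 for Pik3ca, -0.04 for Pik3cb and -0.01 for Pik3r1 (limma adjusted p = 0.696, 0.857 and 0.985), beside -1.34 for the leukocyte subunit Pik3cd. The RAS pathway genes Sos1, Sos2 and Nras did not pass either (-0.42, 0.03 and 0.16). Map2k1 and Rasgrp1 of that pathway fell, with differences of -0.92 and -0.82 (limma adjusted p = 0.00609 and 0.0216). Shc1 (-0.03) and Akt1 (-0.53, limma adjusted p = 0.0531) did not pass. Apart from Itpr3, Fcrl1, Nfatc2, Ppp3cb and Gab1, the genes in these paragraphs were picked after their values were seen, to show both outcomes.

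Other genes of the B lineage read lower as well. Of 14 tested B cell identity genes 14 were lower, with a median of -1.36, led by Fcer2a, the low-affinity IgE receptor (4.53-fold), Ly6d, a surface marker of B lineage commitment (3.91-fold), Dtx1, a regulator of Notch signalling (3.07-fold), and Cxcr5, the receptor that brings B cells to follicles (4.64-fold). Of 14 transcription factors of the lineage 12 were lower, with a median of -1.14, led by Spi1, which encodes PU.1 (2.63-fold), Pax5 (2.91-fold), Spib (2.73-fold) and Irf8 (2.18-fold). Ikzf1 and Tcf3, which encodes E2A, did not pass (-0.30 and -0.21). The comparable proximal genes of the T cell receptor, 14 tested, were lower in 8 and higher in 0, with a median of -0.69. In 3 of these 14 every Nix_KO array lay below every WT array, which is near the 23.9% of all genes. Beside all 3 lists, 24.1% of all tested genes were lower and 14.2% higher. Their falls with the smallest adjusted p were those of Cd247 (1.91-fold), the T cell receptor zeta chain, Plcg1 (1.89-fold), the phospholipase counterpart of Plcg2, Lat (1.92-fold), the membrane scaffold, and Cd3e (1.63-fold). Whether these lists differed from the members was not tested, and the pathway list shares Cr2 with the B identity list and Fyn with the T cell list. Every B cell marker tested above recurs in these lists, so the counts are not separate. Fcer2a, Cr2, Fcrla, Fcmr and Cxcr5 are among the B identity genes, and Pax5 and Ebf1 among the transcription factors. The T cell markers Cd3e, Cd3d and Cd3g recur among the T cell receptor genes, and Cd5 among the pathway genes.

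**Figure D5:**
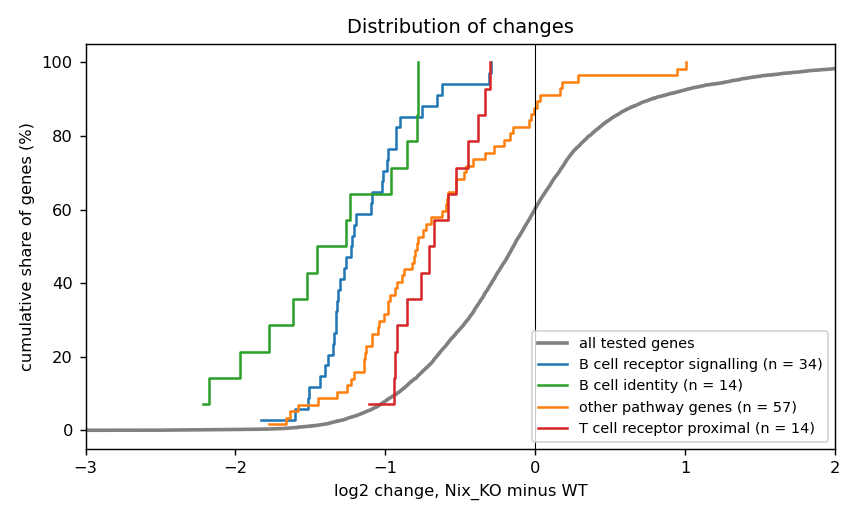
Cumulative share of genes (%) by log2 difference, Nix_KO minus WT, for all tested genes in grey and for 4 lists: 34 members, 14 B cell identity genes, 57 other pathway genes and 14 proximal T cell receptor genes. The member curve is complete before 0, to the left of all genes (median -0.15), and by their medians the B identity genes (-1.36) lie further left and the other pathway genes (-0.79) and T cell receptor genes (-0.69) between.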

How the data were processed

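Spleen RNA of 4 Nix-null and 4 wild-type mice was hybridised to Affymetrix arrays, 1 spleen per array. Per the submitters' processing notes the authors made the deposited intensity values with GCRMA (version and any later scaling not given in the sources used here). They are linear, with a median between 28.85 and 30.61 in each array. GCRMA pulls weak probe sets to a common low level, so their differences depend on it. The planned tests assumed log2 values, so intensities were log2-transformed. From 45101 probe sets the 64 controls were removed, and those reaching a log2 intensity of 5 in 4 or more of the 8 arrays were tested (22347). Names came from the platform annotation, and 34741 of 34945 single-gene probe sets matched the RefSeq gene table. Each gene was read from its brightest single-gene probe set by mean (11027 genes). Genotypes were compared two-sided by lmFit and eBayes of limma 3.58.1 in R 4.3.3, adjusted by Benjamini-Hochberg over all genes, probe sets or probe set pairs, at a threshold of 0.05, a procedure tested on simulated data. In the simulated data 8.47% of the gene calls and 8.05% of the probe set pair calls were false. The gene fit recovered 56.7% of 2-fold and 93.9% of 4-fold changes. Figures used matplotlib 3.10.9 (Python 3.11.15). The number of arrays, 4 per genotype, limits the precision.

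The members, lists and tests were chosen with earlier results of these data known. Array values are given for the receptor chains and, in each role, for the members with the smallest and largest adjusted p, and in other lists the 4 genes that passed with the lowest adjusted p are named, as is any pathway gene called higher. Other genes named with values were picked after these were seen. Alternatives were other filters, scalings, array weights, a robust prior, the mean of probe sets, the replicate block and leaving out arrays.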

Additional observations from a re-analysis of the deposited data

Results flagged for a closer look

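Of 68 sets of 4 arrays (34 members in each genotype), 3 held a lone array far from the others by Dixon's ratio (the gap to the nearest array over the whole range), past its critical value. Chance marks about 1 in 20 such sets. For Dapp1 in wild type the ratio was 0.967, with WT 4 at 8.49 and the nearest array at 8.36. For Cd72 in Nix_KO spleen it was 0.963, with Nix_KO 10 at 10.84 and the nearest at 10.26. For Cd79a in wild type it was 0.908, with WT 3 at 13.55 and the nearest at 13.77.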

How the results depend on the processing

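Over 18 alternatives, 8 of them leaving out 1 array, the members called lower numbered 31, except 32 without Nix_KO 10, 26 with a replicate block and 23 without Nix_KO 3, WT 3 and WT 5. The 8 fits that left out 1 array kept the same 31 members lower, and no difference of a member changed sign. The members' median lay between -1.41 and -1.08 when 1 array was left out, and was -1.11 with each array centred on its median, where the median of all genes was -0.02 and 18.7% of all genes were lower and 17.1% higher. Pairs of member probe sets called different were 4 with no filter on dim probe sets (Bcl10, Pik3cd), 6 with array weights (Bcl10, Cd22, Pik3cd) and from 0 to 4 when 1 array was left out, the 4 without Nix_KO 6. Pathway genes called higher were 1 with the mean of probe sets (Gab1) and 1 with the replicate block (Ppp3cb). Member probe sets lower were 0 with the replicate block and 3 without Nix_KO 3, WT 3 and WT 5, and other pathway genes lower were 16 and 17. The block used the numbers 3 and 6 that both genotypes share, hence 4 arrays. Deviations of same-numbered arrays correlated at 0.252 and 0.147, and those of differently numbered arrays at -0.493 to 0.384. The labels do not say what a shared number means, and 2 pairs cannot decide whether the arrays were paired. Nix_KO 3 and WT 3 also had the most pancreatic signal of their genotypes. Under the block Cd81, Btk, Bank1, Vav2, Bcl10 and Inpp5d were no longer called and Pik3ap1 was, while 6.07% of all genes and 0.00447% of all probe sets were lower. With the mean of probe sets Pik3cd read -0.79 (limma adjusted p = 0.00838). With array weights Pik3ap1 read -0.02. The causes were not tested.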
